A study of Mus musculus with 2 samples.

Results

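The mitochondrial ribosomal protein genes were taken as every gene in the deposited tag-count table whose symbol begins with Mrpl or Mrps followed by a digit. The rule took 75 of 16040 genes, 47 with an Mrpl symbol (large subunit) and 28 with an Mrps symbol (small subunit). The study profiled lung fibroblasts of mice at day 14 after bleomycin, a DNA-damaging drug that causes lung fibrosis in rodents, or after saline, both given into the trachea. All mice carried the Col1a2-EGFP reporter, a green fluorescent protein under control of the type 1 collagen gene Col1a2, and cells positive for it and negative for lineage markers were sorted from digested lungs. There was 1 bleomycin library and 1 saline library, each from fibroblasts of 3 mice, so no difference below has a replicate check. The age of the mice, the dose and the lineage markers are not given in the sources used here.

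Mitochondria make a small set of membrane proteins of the respiratory chain and the ATP synthase on ribosomes of their own. The RNA of these ribosomes comes from mitochondrial DNA, whereas every protein of both subunits is encoded in the nucleus, made in the cytosol and imported. Some of the proteins descend from bacterial ribosomal proteins and others are found only in mitochondria. The small subunit holds the messenger RNA and its decoding centre, and the large subunit joins the amino acids and faces the inner membrane at the exit of its tunnel.

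In serial analysis of gene expression (SAGE), a restriction enzyme cuts complementary DNA and a short piece beside its last site toward the 3′ end is counted. A transcript gives at most 1 tag, so levels were compared between genes in CPM, a gene's counts scaled to a library of 1000000, without division by length. The bleomycin library held 1099840 counts and the saline library 1080798, and a single count was worth 0.922 CPM and 0.912 CPM. All 7 fibroblast markers examined were present, with sums of 22146 and 14325 counts, but they did not move together. Col1a2, whose promoter drives the sorting reporter, was 3.47-fold higher (3.28 to 3.67) in the bleomycin library and Col1a1 2.95-fold higher, whereas Dcn was called lower at 1606 counts in the bleomycin and 4861 in the saline library, and Pdgfra had 323 and 509. Brackets after a ratio hold its exact 95% interval, which covers counting error only. Of 10 endothelial markers, 8 were tested and all 8 were called lower by the rule given below, against 8.52% of all tested genes. The 10 summed to 30 counts in the bleomycin and 425 in the saline library, and Emcn was at 0 in both. The 8 epithelial markers summed to 32 and 219 counts, of which Sftpc had 7 and 154 and Scgb1a1 12 and 46. Only these 2 of the 4 tested were called lower. Krt8, not tested, had 4 and 1 counts, and Cdh1 was at 0 in both. The 7 leukocyte markers in the table summed to 7 and 8 counts with Cd3e at 0 in both. The 3 erythroid markers in the table summed to 7 and 29 counts. Of 15 tested cell cycle genes, 12 were called higher, against 8.08% of all tested genes. The 20 on the list summed to 599 and 224 counts, of which Pcna, the most abundant and not called, had 183 and 193. Whether these differences in cell content or division have a part in the values of the mitochondrial ribosomal genes was not tested.

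Taken as a set, transcripts of mitochondrial ribosomal proteins were slightly more abundant in the bleomycin library, with summed ratios above 1 for both subunits. All 75 genes together had 3024 counts in the bleomycin library and 2424 in the saline library, or 2789 CPM and 2211 CPM, a ratio of 1.26 (1.20 to 1.33). This was 0.275% of bleomycin counts and 0.224% of saline counts. In a sorted pool, more RNA per cell and a different mix of cells cannot be told apart. The 62 genes with at least 10 counts over both libraries were each put to an exact binomial test, two-sided, which compares these libraries and not the conditions. Of these 62, 43 (69.4%) had a ratio above 1, against 50.4% of all 9369 genes tested. Their median log2 ratio was 0.30, with 0.5 added to each count, against 0.02 for all tested genes. The lower and upper quartiles were -0.18 and 0.71 for the 62, and -0.59 and 0.54 for all tested genes.

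Few single genes of the set passed a test, and those that did were higher after bleomycin. A gene was called when its Benjamini-Hochberg adjusted p was under 0.05 and its ratio at least 2 in either direction. Called higher were 2 of 62, Mrps12 and Mrps14, which is 3.23% against 8.08% of all tested genes, and called lower were 0 of 62, against 8.52%. Without the minimum ratio, 9 of 62 (14.5%) were higher at an adjusted p under 0.05, near the 13.8% of all tested genes, and 0 were lower, against 14.1%. At an unadjusted p under 0.05, 16 (25.8%) were higher and 0 lower, against 18.1% and 18.5% of all tested genes. The share of higher genes was under that of the whole table by the call rule, near it by adjusted p alone and above it by unadjusted p, and no gene of the set was lower by any of these rules.

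**Figure D1:**
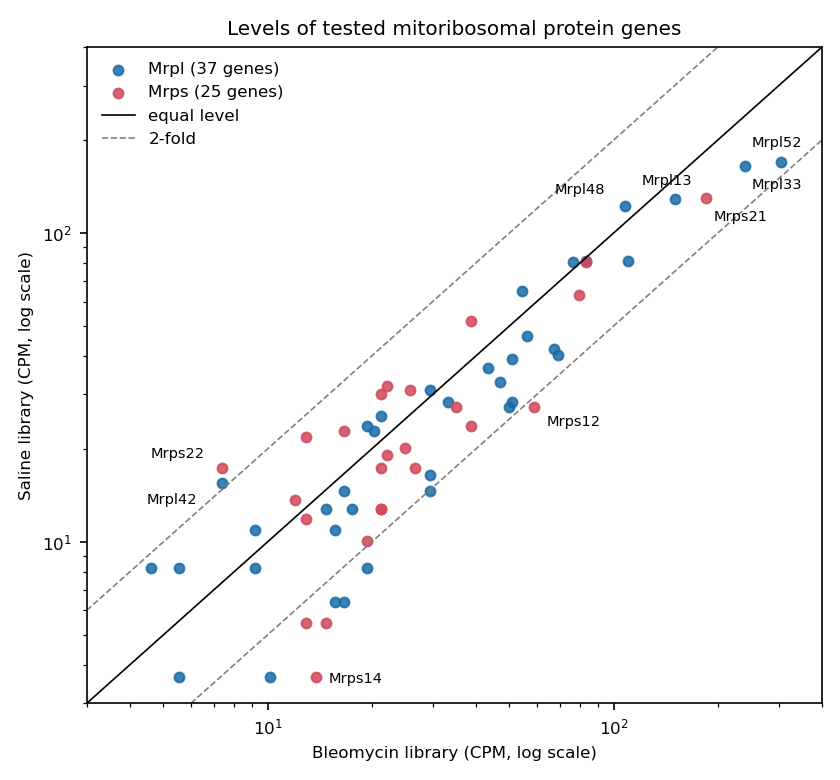
Level of each of the 62 tested genes in the bleomycin library (horizontal axis) and the saline library (vertical axis), in CPM on log scales; blue points are Mrpl and red points Mrps genes, the solid line marks equal levels and the dashed lines a 2-fold difference. 43 of the 62 points lie on the bleomycin side of the solid line, and those past the lower dashed line include the called Mrps12 and Mrps14 beside genes with few counts that were not called.

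The large and the small subunit did not differ beyond counting error. The 47 Mrpl genes summed to 2101 counts in the bleomycin and 1641 in the saline library, a ratio of 1.29 (1.21 to 1.38). The 28 Mrps genes summed to 923 and 783 counts, a ratio of 1.19 (1.08 to 1.31). The Mrpl ratio was 1.09 times the Mrps ratio, with an exact conditional interval of 0.966 to 1.22 that holds 1 and also allows an excess of the large subunit of that upper size. Mrpl genes made up 69.5% of the set's counts in the bleomycin library (67.8% to 71.1%) and 67.7% in the saline library (65.8% to 69.6%, both exact binomial intervals). The median log2 ratio was 0.27 over 37 tested Mrpl genes, with 26 above a ratio of 1, and 0.31 over 25 tested Mrps genes, with 17 above it. Symbols do not fully match the structure, since Mrps18a and Mrps30 are known to sit in the large subunit. With both placed there, the ratios were 1.30 (1.22 to 1.39) for the large and 1.18 (1.07 to 1.30) for the small subunit. The order of the medians turned with both placed there, at 0.35 for the large and 0.29 for the small subunit, and with a minimum of 50 counts, at 0.32 for Mrpl and 0.19 for Mrps genes.

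The large subunit was led in both libraries by a few genes, of which Mrpl52 differed most clearly. Mrpl52, a protein found only in mitochondrial ribosomes, had 330 counts in the bleomycin library and 186 in the saline library, or 304 CPM and 169.6 CPM. It was the most abundant gene of the set in both libraries, at 1.79-fold (1.49 to 2.16; adjusted p = 1.81e-09, exact binomial test). Mrpl33, homologue of a small bacterial protein of the large subunit, had 260 and 181 counts, a ratio of 1.45 (1.20 to 1.77; adjusted p = 0.000824, exact binomial test). Both had intervals above 1 and ratios under 2. Mrpl13, a homologue of bacterial L13, had 163 and 141 counts (1.17, 0.927 to 1.48), and Mrpl54, found only in mitochondria, had 119 and 89 counts (1.35, 1.02 to 1.80; adjusted p = 0.0962). Mrpl48, a mitochondrial protein of the central protuberance, had 117 counts in the bleomycin and 134 in the saline library, a ratio of 0.883 (0.683 to 1.14). These 5 genes held 47.1% of Mrpl counts in the bleomycin and 44.5% in the saline library.

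The highest Mrpl ratios belonged to genes with few counts, and none of them passed the adjusted test. Mrpl47, homologue of a bacterial protein at the tunnel exit, had 11 counts in the bleomycin and 4 in the saline library (2.78, 0.824 to 12). Mrpl39, found only in mitochondria, had 18 and 7 counts (2.60, 1.04 to 7.37; adjusted p = 0.0877). Mrpl16, the homologue of bacterial L16, had 17 and 7 counts (2.46, 0.968 to 7.01). All 3 stood at single-digit counts after saline, which makes their intervals wide. Mrpl53, another protein found only in mitochondria, had 21 and 9 counts (2.36, 1.04 to 5.85; adjusted p = 0.0890), and its predicted tag is also found in Gm42688. Mrpl37, likewise specific to mitochondria, had 32 and 16 counts (2.02, 1.08 to 3.95; adjusted p = 0.0685).

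A further 4 Mrpl genes had an adjusted p under 0.05 and ratios short of 2; they, and Mrpl10 beside them, are named here after their values were seen. Mrpl12, which forms the flexible stalk that recruits translation factors, had 54 counts in the bleomycin and 30 in the saline library (1.82, 1.14 to 2.95; adjusted p = 0.0337, exact binomial test). Mrpl11, at the base of that stalk, had 73 and 46 counts (1.60, 1.09 to 2.37; adjusted p = 0.0471, exact binomial test). Mrpl10, which anchors the stalk, had 47 and 40 counts and an interval that holds 1 (1.19, 0.763 to 1.86). The stalk proteins thus ranged from 1.19 to 1.82. Mrpl15, a homologue of bacterial L15, had 55 and 31 counts (1.79, 1.14 to 2.88; adjusted p = 0.0363), and Mrpl32, a zinc-binding protein trimmed by a mitochondrial protease before assembly, had 75 and 44 counts (1.72, 1.17 to 2.56; adjusted p = 0.0190).

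At the other end, the lowest Mrpl ratios were not distinguishable from 1. Mrpl42, specific to mitochondria, had 8 counts in the bleomycin and 17 in the saline library (0.476, 0.178 to 1.16). Mrpl4, whose bacterial homologue lines the exit tunnel, had 5 and 9 counts (0.562, 0.148 to 1.87), and Mrpl35, a homologue of bacterial L35, had 6 and 9 counts (0.674, 0.197 to 2.12). The libraries differed by at most 9 counts for any of them. Mrpl49 had 21 and 26 counts (0.817, 0.437 to 1.51), and Mrpl36, homologue of the smallest bacterial large-subunit protein, had 23 and 28 counts (0.831, 0.457 to 1.5). Other genes with over 50 counts in each library, named after their values were seen, also had intervals that hold 1. Mrpl51 had 61 counts in the bleomycin and 51 in the saline library, Mrpl2 had 90 and 89, Mrpl30 had 83 and 88, and Mrpl24 had 59 and 71 (0.840, 0.585 to 1.20).

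**Figure D2:**
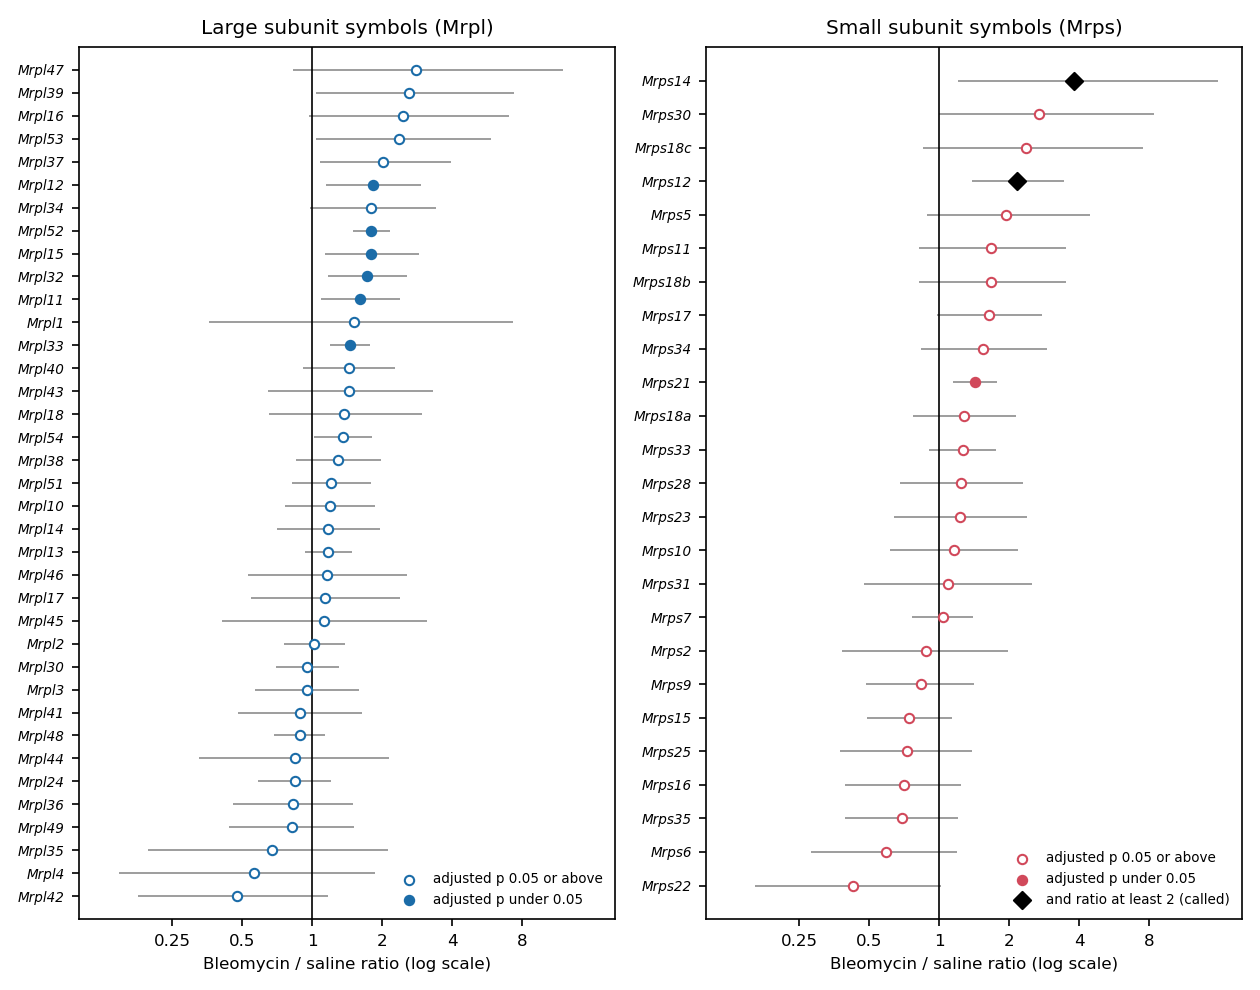
Ratio of the bleomycin to the saline library for each tested gene (log scale), Mrpl genes at left and Mrps genes at right, with exact 95% intervals of counting error as grey lines. Open points have an adjusted p of 0.05 or above, filled points lie under it, and black diamonds mark Mrps12 and Mrps14, which also have a ratio of at least 2; every gene with a filled point or a diamond lies above 1.

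Both called genes have Mrps symbols, which is 8.0% of the 25 tested Mrps genes, against 8.08% of all tested genes. Mrps12, the homologue of bacterial S12 at the decoding centre, had 64 counts in the bleomycin library and 30 in the saline library, or 59.0 CPM and 27.4 CPM. Its ratio was 2.16 (1.38 to 3.45; adjusted p = 0.00255, exact binomial test). Mrps14, the homologue of bacterial S14 in the head of the subunit, had 15 and 4 counts, a ratio of 3.79 (1.21 to 15.7; adjusted p = 0.0426, exact binomial test). The call of Mrps14 rests on 19 counts in all and was lost under total-count scaling, under DESeq2 size factors and with no minimum count. Mrps12 was kept in each of these, but with 5 added to each count its log2 ratio was 0.995, under the limit for a call, against 1.17 for Mrps14. Both calls were lost with Bonferroni adjustment and when edgeR's exact test assumed a coefficient of variation of 0.2 or 0.4 among preparations.

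The tag that each transcript should give was predicted from GENCODE M21 transcripts (GRCm38) as the last CATG site and the bases after it, 26 in all. That the kit cuts at CATG is background knowledge, not stated in the labels, and the sites that the authors counted are not given in the sources used here. Of the 75 predicted tags, 69 were found in transcripts of no other gene. Those of the genes on which the results turn are shown, with the cutting site in capitals, because each was found in its own gene alone; whether the deposited counts come from these tags was not tested.
Mrps12: CATGtgctgggatggggtttgtaata
Mrps14: CATGaaaatttaatagctatgttctt
Mrps21: CATGtccaactcctttctttatccag
Mrpl52: CATGatctcaaacctaaagggacttt
Mrpl33: CATGgcctcgggggatgttggctaag

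Among the other abundant Mrps genes, Mrps21 was higher and the rest had intervals that hold 1. Mrps21, homologue of a small bacterial protein of the platform, was the most abundant Mrps gene, with 200 counts in the bleomycin and 142 in the saline library (1.42, 1.14 to 1.78; adjusted p = 0.00733, exact binomial test). Mrps7, the homologue of bacterial S7 that organises the head, had 90 and 88 counts (1.03, 0.762 to 1.40). Mrps33, specific to mitochondria, had 86 and 69 counts (1.26, 0.908 to 1.76). Only Mrps21 among these 3 had an adjusted p under 0.05. Mrps15, a homologue of the ribosomal RNA-binding protein S15, had 42 and 57 counts (0.745, 0.488 to 1.13). With Mrps12, these genes held 52.2% of Mrps counts in the bleomycin and 49.3% in the saline library.

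The remaining extremes of the small-subunit symbols did not pass the adjusted test. Mrps30, which sits in the large subunit, had 16 counts in the bleomycin and 6 in the saline library (2.70, 1.00 to 8.41; adjusted p = 0.101). Mrps18c, a homologue of bacterial S18, had 14 and 6 counts (2.36, 0.852 to 7.49), and its predicted tag is also found in Gm43511. Mrps5, the homologue of a bacterial protein at the messenger RNA entry, had 21 and 11 counts (1.93, 0.890 to 4.43). All of these were above 1, with few counts behind them. The lowest was Mrps22, a mitochondria-specific protein in which human mutations cause mitochondrial disease, with 8 counts in the bleomycin and 19 in the saline library (0.426, 0.161 to 1.02; adjusted p = 0.141). Mrps6, a homologue of bacterial S6, had 14 and 24 counts (0.590, 0.282 to 1.19), and Mrps35, specific to mitochondria, had 24 and 35 (0.693, 0.395 to 1.20). Mrps16, a homologue of bacterial S16, had 23 and 33 counts (0.705, 0.395 to 1.24), and Mrps25, specific to mitochondria, had 18 and 25 (0.728, 0.374 to 1.39). For all 5 the interval holds 1.

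The 13 genes under 10 counts over both libraries, 10 Mrpl and 3 Mrps, were not tested and summed to 33 counts in the bleomycin and 27 in the saline library. Higher in the bleomycin library were 6 of them. Mrpl50 had 7 counts there and 1 in the saline library, Mrpl23 had 6 and 1, Mrpl20 had 5 and 1, Mrpl19 had 3 and 0, Mrps26 had 2 and 0, and Mrps27 had 1 and 0. Lower were 5 of them. Mrps24 had 1 count in the bleomycin and 7 in the saline library, Mrpl9 had 1 and 5, Mrpl21 had 1 and 3, Mrpl28 had 1 and 2, and Mrpl27 had 3 and 5. Mrpl55 had 2 counts in each. Mrpl22 was at 0 in both, which allows up to 2.77 CPM in the bleomycin and 2.74 CPM in the saline library. The predicted tags of Mrpl9, Mrpl22, Mrpl23 and Mrpl27 are also found in transcripts of other genes, that of Mrpl27 in 19 of them.

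Levels of the tested genes spread widely within each library, although the finished ribosome is thought to hold a single copy of most of its proteins. They ran from 4.61 to 304 CPM with a median of 22.1 in the bleomycin library, and from 3.65 to 169.6 CPM with a median of 22.8 in the saline library. The order was largely shared: across the 62 genes, which are not independent replicates, levels in the libraries had a Spearman correlation of 0.889, and log2 CPM a Pearson correlation of 0.883. The Spearman correlation was 0.936 over Mrpl and 0.759 over Mrps genes, against 0.833 over all tested genes. Medians of the set lay above those of all tested genes in each of 4 ranges of abundance. The median log2 ratio was 0.86 over the 10 genes with 10 to 24 counts over both libraries, 0.25 over 22 genes with 25 to 49, 0.30 over 16 genes with 50 to 99 and 0.30 over 14 genes with at least 100. The medians of all tested genes in the same ranges were 0.02, 0.02, -0.05 and 0.01.

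Proteins with a bacterial homologue and those found only in mitochondria did not differ beyond counting error. The 44 genes with a bacterial homologue summed to 1798 counts in the bleomycin and 1464 in the saline library, a ratio of 1.24 (1.16 to 1.33). The 29 genes specific to mitochondria summed to 1197 and 936 counts, a ratio of 1.29 (1.19 to 1.41). The first ratio was 0.960 times the second (0.859 to 1.07). Split by structural subunit, mitochondria-specific genes had ratios of 1.36 (1.23 to 1.49) in the large and 1.08 (0.894 to 1.31) in the small subunit. Those with a bacterial homologue had 1.26 (1.15 to 1.37) and 1.21 (1.08 to 1.37). Of the 9 genes with an adjusted p under 0.05, 8 have a bacterial homologue, which is 22.9% of 35 such genes tested, and Mrpl52 is specific to mitochondria, which is 3.85% of 26 tested, against 13.8% of all tested genes. Tested genes of the first class had median counts of 32 in the bleomycin and 30 in the saline library, against 22.5 and 19 for the second. These shares are therefore not matched for depth. The medians of log2 ratios of the classes were 0.25 and 0.31, in the same order. Mrpl55 and Mrps28, whose descent was not assigned, were left out of both classes.

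Other genes of mitochondrial translation, from lists drawn up from general knowledge, were mixed. For comparison, 8.08% of all tested genes were called higher and 8.52% lower. Mitoribosomal proteins under other symbols had 0 of 5 tested genes called and a median log2 ratio of -0.20. The most abundant, Dap3, a small-subunit protein that binds GTP, had 49 counts in the bleomycin and 57 in the saline library (0.869, 0.581 to 1.30). Assembly factors had 1 of 15 called higher, 0 lower and a median of 0.02. That gene was C1qbp, a matrix protein that binds RNA and takes part in building these ribosomes, with 69 and 27 counts (2.58, 1.63 to 4.20; adjusted p = 0.000123, exact binomial test). Dhx30, an RNA helicase of mitochondrial RNA granules, had 42 and 78 counts (0.545, 0.365 to 0.802; adjusted p = 0.00709), named after its values were seen, and was not called because the difference stayed under 2-fold.

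Translation factors had 2 of 11 called higher and 0 lower, against 8.08% and 8.52% of all tested genes. Their median log2 ratio was -0.31, with 4 of the 11 above a ratio of 1 and 7 below it. Tsfm, which recycles the elongation factor that delivers transfer RNA, had 29 counts in the bleomycin and 9 in the saline library (3.26, 1.5 to 7.83; adjusted p = 0.00555, exact binomial test). Guf1, a back-translocating elongation factor, had 18 and 3 counts (6.07, 1.77 to 32.2; adjusted p = 0.00466, exact binomial test). The list's most abundant gene, Letm1, an inner membrane protein, had 64 and 67 counts (0.966, 0.675 to 1.38). Mitochondrial tRNA synthetases had 1 of 12 called higher, 0 lower and a median of 0.40. The called gene was Gars, whose product charges glycine in the cytosol as well as in mitochondria, with 185 and 93 counts (2.01, 1.56 to 2.61; adjusted p = 2.59e-07, exact binomial test).

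Genes of mitochondrial DNA expression and its nuclear regulators had 1 of 15 called higher and 0 lower, against 8.08% and 8.52% of all tested genes. Their median log2 ratio was 0.27. The called gene was Esrra, a nuclear receptor that drives mitochondrial genes, with 41 counts in the bleomycin and 17 in the saline library (2.44, 1.36 to 4.58; adjusted p = 0.00768, exact binomial test). Myc, a growth-promoting transcription factor, had 116 and 71 counts (1.65, 1.22 to 2.25; adjusted p = 0.00439), was not called and is also named after its values were seen. Genes of protein import and folding, the machinery that takes nuclear-encoded proteins into mitochondria, had 5 of 30 called higher, 0 lower and a median of 0.50. Among the called were Tomm40, the pore of the outer membrane, with 100 and 37 counts (2.73, 1.86 to 4.10), and Timm22, which inserts carriers into the inner membrane, with 26 and 7 counts (3.76, 1.59 to 10.2). Timm8a1 had 57 and 18 counts (3.20, 1.86 to 5.78) and Timm13, its relative among the small chaperones between the membranes, 88 and 33 (2.70, 1.79 to 4.16). Hspe1, the chaperonin cofactor, was the most abundant at 649 and 394 counts (1.67, 1.47 to 1.89) and stayed under 2-fold.

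**Figure D3:**
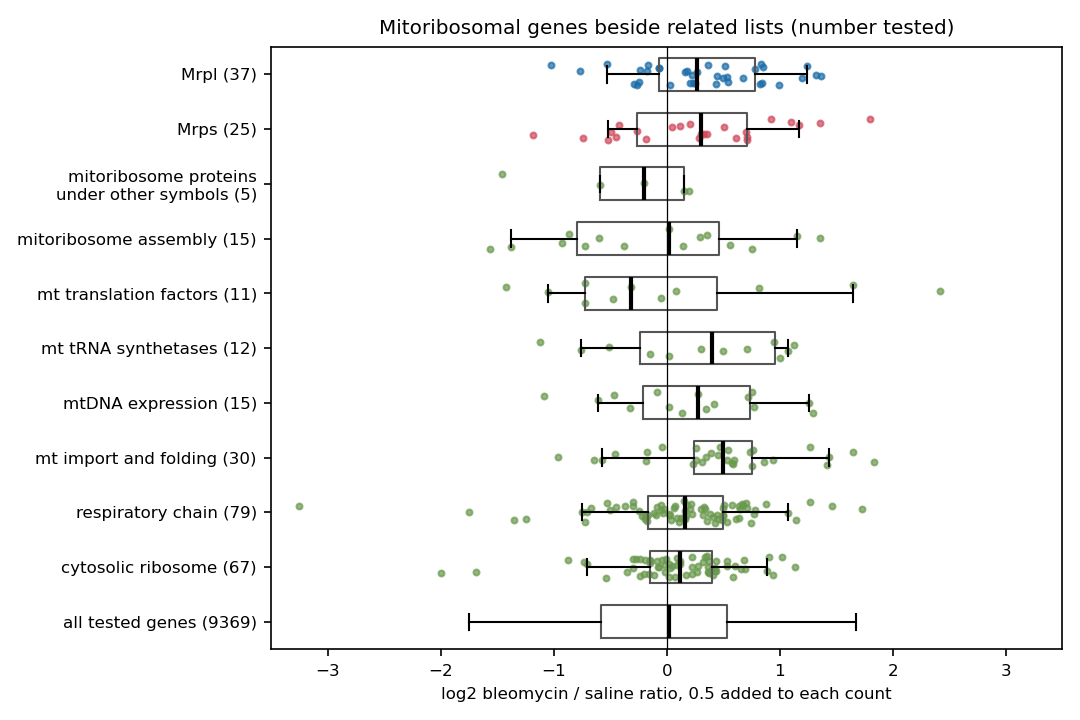
Log2 ratio of the bleomycin to the saline library for the tested genes of each list, 1 point per gene except for all tested genes; boxes span the quartiles with the median as a thick line, whiskers run from the 5th to the 95th percentile, and the number tested is in brackets. Medians of Mrpl (0.27) and Mrps (0.31) lie above that of all tested genes (0.02) and under that of import and folding genes (0.50).

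Set beside the cytosolic ribosome and the respiratory chain, the mitochondrial ribosomal genes had a somewhat larger summed ratio. The 83 genes with respiratory chain or ATP synthase symbols were taken by a pattern. Cox4nb, Uqcc and Atp5sl are among them, so not every one need be a subunit. They summed to 18281 counts in the bleomycin and 15667 in the saline library, a ratio of 1.18 (1.16 to 1.21). Of 79 tested, 4 were called higher and 3 lower, against 8.08% and 8.52% of all tested genes. The median log2 ratio of the 79 was 0.17. The 72 cytosolic ribosomal genes summed to 111709 and 101404 counts, a ratio of 1.11 (1.10 to 1.12), with 2 of 67 called higher and 2 lower and a median of 0.12; many of them have near-identical copies, so their counts are uncertain. The ratio of the mitochondrial ribosomal genes was 1.07 times that of the respiratory chain (1.01 to 1.13) and 1.13 times that of the cytosolic ribosome (1.07 to 1.20). It was 0.909 times that of the import and folding genes (0.841 to 0.982). These intervals cover counting error alone, and the spread between preparations is not known.

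Each of 3 motifs was more frequent in promoters of the set than in promoters at large. Windows from 250 bases before to 50 after the start of each gene (RefSeq, GRCm38.p6) were found for 66 of the 75 genes and searched on both strands. The core GCGCANGCG of NRF1, a factor known for activating nuclear genes of mitochondria, was in 15 of 66 (22.7%), against 9.63% of 17492 protein-coding genes and 7.03% of all 27025 genes with a window. The core CCGGAAG of ETS factors, the family of GABP, was in 24 (36.4%), against 12.9% and 9.93%. The core AAGATGGCG of YY1 was in 8 (12.1%), against 2.14% and 1.64%. At least 1 of the 3 was in 40 (60.6%), against 21.8% and 16.5%, and matches of different motifs overlapped in 0 genes of the set. A match is a description of the letters and not a site of binding. Whether the excess is particular to the set was not tested. No genes matched for expression or base composition were used, and the respiratory chain and cytosolic ribosome were not examined as groups.

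Ratios did not follow the motifs in a common direction. The median log2 ratio was 0.44 over 19 tested genes with the ETS core and 0.20 over 35 without it. It was 0.24 over 12 genes with the NRF1 core and 0.31 over 42 without it, and 0.05 over 6 genes with the YY1 core and 0.28 over 48 without it. No test was made over genes, which are not replicates. Of the 9 genes with an adjusted p under 0.05, 8 had a window, and 4 of these held a motif in the 250 bases before the start site (Mrpl12, Mrpl32, Mrpl52 and Mrps21). Mrpl11, Mrpl33 and the called Mrps12 and Mrps14 held none there. The full windows of Mrpl33 and Mrps12 do hold an ETS core, which does not lie within those 250 bases. As examples of a match, these bases are shown for Mrpl52, the most abundant gene of the set, and for Mrps21 and Mrpl12, which also had an adjusted p under 0.05, with the motif in capitals. An ETS match in the window of Mrps21 does not lie within the bases shown. The first holds the reverse complement of the ETS core from 47 bases before the start site, at chr14:54426659-54426908 on the plus strand. The other two hold that of the NRF1 core, from 90 bases before the start site of Mrps21 at chr3:95871515-95871764 on the minus strand and from 80 bases before that of Mrpl12 at chr11:120484387-120484636 on the plus strand.
Mrpl52: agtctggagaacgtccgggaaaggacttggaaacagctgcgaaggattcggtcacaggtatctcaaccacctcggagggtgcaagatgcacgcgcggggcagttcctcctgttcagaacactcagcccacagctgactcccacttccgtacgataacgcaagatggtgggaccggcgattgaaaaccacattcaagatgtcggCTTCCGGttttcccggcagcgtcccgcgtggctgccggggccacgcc
Mrps21: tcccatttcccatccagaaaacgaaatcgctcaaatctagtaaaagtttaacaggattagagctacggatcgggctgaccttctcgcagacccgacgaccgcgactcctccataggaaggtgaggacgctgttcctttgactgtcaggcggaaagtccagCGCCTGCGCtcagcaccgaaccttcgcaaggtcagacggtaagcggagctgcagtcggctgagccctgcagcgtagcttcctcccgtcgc
Mrpl12: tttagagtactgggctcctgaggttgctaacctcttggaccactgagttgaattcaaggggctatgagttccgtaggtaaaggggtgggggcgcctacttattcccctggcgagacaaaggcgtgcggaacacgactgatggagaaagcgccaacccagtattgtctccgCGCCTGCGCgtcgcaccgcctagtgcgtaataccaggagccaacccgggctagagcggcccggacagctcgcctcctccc

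**Figure D4:**
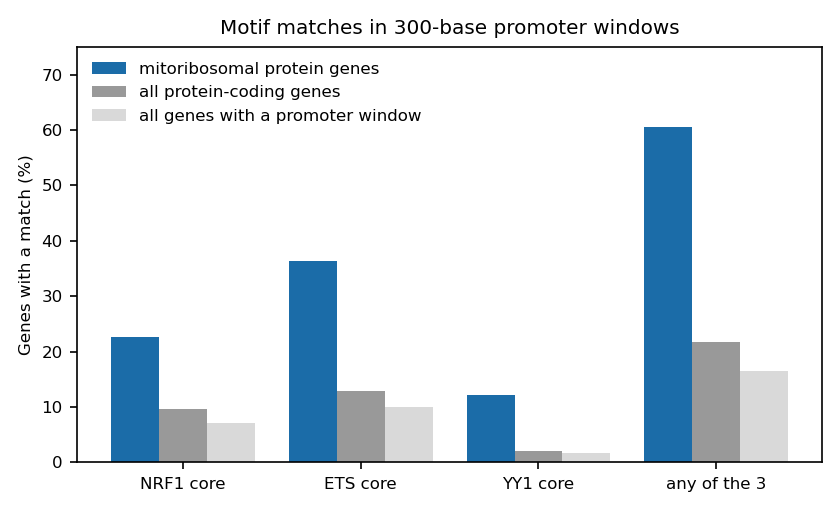
Percent of genes whose 300-base promoter window holds each motif core on either strand, for the 66 matched mitochondrial ribosomal protein genes, all protein-coding genes and all genes with a window. The bar of the set is the tallest for each motif, at 22.7% for NRF1, 36.4% for ETS and 12.1% for YY1.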

How the data were processed

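The deposited table gives whole-number SAGE tag counts per gene for 1 bleomycin and 1 saline library, per the file headers and the labels' protocols. BWA 0.6.2 and the build mm9 are listed, with no role, per the submitters' processing notes. The tests assume raw counts. Tag assignment by the authors, use of strand and any scaling of the deposited counts are not stated there. After 1 blank line was dropped, 16040 genes remained. Library sizes were scaled by the trimmed mean of M values (TMM; edgeR 4.0.16, R 4.3.3). The quasi-likelihood test of edgeR could not be fitted without replicates. Genes with at least 10 counts over both libraries (9369) each had a two-sided exact binomial test (scipy 1.17.1), adjusted by Benjamini-Hochberg over all of them. A check of it on simulated counts used counting error only, so it cannot show how the test fares with spread between preparations. Calls use log2 ratios with 0.5 added to each count. Intervals are Clopper-Pearson at 95%, and no molecular identifiers are described, so intervals and the floor of 3 counts cover counting error only.

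The members and lists were chosen with earlier results of these data known. Genes were named if called, among the 5 largest or 5 smallest ratios or the 5 most abundant of each subunit, or under the minimum; in other lists, up to 4 called genes and the most abundant. Sequence tables are of GRCm38, not mm9, so no coordinate of the authors' build is given. Alternatives covered scaling, the count minimum, the added count, the ratio, the adjustment and an assumed spread between preparations (edgeR). They also covered the subunit split and leaving out the most abundant gene of each subunit.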

Additional observations from a re-analysis of the deposited data

How the results depend on the processing

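The medians and summed ratios of the mitochondrial ribosomal genes kept their direction under every alternative run, whereas the number called did not. Called higher were 2 genes as reported, 1 with total-count library sizes, DESeq2 size factors, a minimum of 50 counts or no minimum (Mrps12 in each), and 1 with a ratio of at least 3 (Mrps14). There were 7 with a ratio of at least 1.5, 9 with no minimum ratio, and 0 with Bonferroni adjustment. With edgeR's exact test there were 0 when preparations were assumed to vary by a coefficient of 0.2, with 274 of all genes called higher and 333 lower, and 0 at 0.4, with 21 and 8. Called lower were 0 in all of these. The calls in the whole table moved with the rule as well. Of its 9369 tested genes, 757 were called higher as reported and 1103 when the limit was 1.5, against 2 and 7 of 62 in the set. A limit of 3 gave 443, no limit gave 1295 and Bonferroni adjustment gave 288. When 50 counts were required, 396 of 4823 genes were called higher, against 1 of the 30 of the set. The median over the genes each setting left (30 to 74) ran from 0.24 to 0.30, with 0.24 under no minimum and genes at 0 set to a bound, an alternative added after seeing the data. Leaving out genes whose predicted tag occurs elsewhere, also added then, gave 0.28. With a minimum of 50 counts, 21 of the 30 genes left had a ratio above 1. Without the most abundant gene of each subunit, the summed ratio was 1.23 for Mrpl and 1.14 for Mrps genes. The Mrpl ratio was 1.08 to 1.10 times the Mrps ratio. The respiratory chain median was 0.124 with total counts and 0.205 with a minimum of 50, and the cytosolic ribosome median was 0.0803 with total counts, 0.105 with DESeq2 size factors and 0.148 with no minimum. For these shifts the cause was not tested. Depth limits single genes, since 48 of 62 had under 100 counts over both libraries. No paired analysis was possible because each group is 1 library.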
